A study of Mus musculus with 6 samples.

Results

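The glucuronosyl, sulfo and glutathione transferases are the conjugating enzymes of phase II drug metabolism, and their transcripts were compared in livers with and without the sugar-sensing transcription factor ChREBP, the product of Mlxipl. Members were all probe sets annotated with a single gene symbol that starts with Ugt1, Ugt2, Ugt3, Sult or Gst and with a mean log2 signal of at least 5.5 over the 6 arrays. The probe set with the highest mean stood for its gene. This gave 36 genes out of 12596 tested by the same rule: 10 glucuronosyltransferases (8 of the Ugt2 and 2 of the Ugt3 subfamily), 7 sulfotransferases and 19 glutathione transferases. No Ugt1 gene was among them, because 3 probe sets with Ugt1a symbols each carried several symbols, up to 8, and so named no single gene.

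Each of the 6 arrays held total RNA from the liver of a different male mouse. The 3 ChLO mice were liver-specific Chrebp knockouts, from a cross of Chrebpflox mice to an albumin-Cre transgenic line, so that the recombinase was driven in hepatocytes and in other cells that use the albumin promoter. The 3 WT mice were wild type. The labels name no strain and do not say whether the WT mice carried floxed alleles or Cre. Mice of both groups were 12 weeks old when a diet with 60% sucrose began, and were kept on it for 1 week, so all values describe the sucrose-fed state.

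Glucuronosyltransferases sit in the membrane of the endoplasmic reticulum and move glucuronic acid from UDP-glucuronate onto bilirubin, steroids, bile acids and drugs. Cytosolic sulfotransferases move sulfate from the donor PAPS onto phenols, catecholamines, steroids and bile acids. Glutathione transferases join glutathione to electrophiles, and several also reduce lipid peroxides. Liver is the main site of these reactions, and the conjugates leave the hepatocyte through export pumps for bile or blood. The xenobiotic receptors CAR, PXR and AHR and the stress-response factor NRF2 are known to raise transcription of many of these genes.

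The arrays correlated with each other at 0.894 to 0.954 over the 12596 genes tested, each represented by its brightest probe set. Mlxipl had log2 signals of 10.34, 11.22 and 11.48 in ChLO 1, 2 and 3, against 12.61, 12.56 and 12.59 in WT 1, 2 and 3. It was thus lower on every ChLO array, with a difference of -1.57 (SE 0.28, limma adjusted p = 0.185), and the labels do not say whether this probe set lies in the floxed part. Of 17 genes listed as ChREBP, its direct partners and its targets, all 17 had the lower mean in ChLO livers. Of 22 hepatocyte markers, all passed the filter on low signal, and all 22 had the lower mean in ChLO livers, with a median difference of -0.31. Array ChLO 3 stood apart from ChLO 1 and ChLO 2. The median shift of 18 stellate cell and fibroblast markers from the WT mean was 1.25, 1.28 and -0.01 in ChLO 1, 2 and 3, against 0.11, 0.27 and -0.32 in the WT arrays, and that of 18 Kupffer cell and myeloid markers was 0.81, 0.93 and -0.12, against 0.01, 0.00 and 0.00. The log2 of their summed linear signals spanned 14.17 to 15.40 in ChLO and 13.90 to 14.46 in WT for the stellate list. For the myeloid list it spanned 14.30 to 15.18 in ChLO and 14.35 to 14.43 in WT. The part of these shifts in the results below was not tested. In whole liver, fewer cells of a type and less RNA per cell cannot be told apart.

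No transferase passed an adjusted p of 0.05, and neither did any other gene (0% of 12596). The adjusted p-values of the 36 members lay between 0.228 and 0.979. At an adjusted p under 0.10 the count was 0 of 36, against 0.111% of all genes. At an unadjusted limma p under 0.05, 2 of the 36 (5.56%) were called, Gsta2 and Gstm6, against 8.96% of all genes. Both were higher in ChLO livers, against 5.46% of all genes in that direction, and 0 members were lower, against 3.5% of all genes. The 3 ChLO and 3 WT arrays did not overlap for 2 members (5.56%), against 15.2% of all genes. Gsta2 was the 1 member with every ChLO array above every WT array, against 9.04% of all genes, and Ugt2b36 the 1 member with every ChLO array below, against 6.19%. The members' shares under these call rules were thus near or below those of all genes. By size alone, 5 members (13.9%) had an absolute difference of at least 1, against 6.79% of all genes. An absolute difference under 0.5 was found for 22 members (61.1%), against 75.1% of all genes. In any size of difference, 13 members (36.1%) had the higher mean and 23 (63.9%) the lower mean in ChLO livers, whereas 56.5% of all genes were higher and 43.5% lower. The median difference was -0.16 over the members and 0.06 over all genes.

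**Figure D1:**
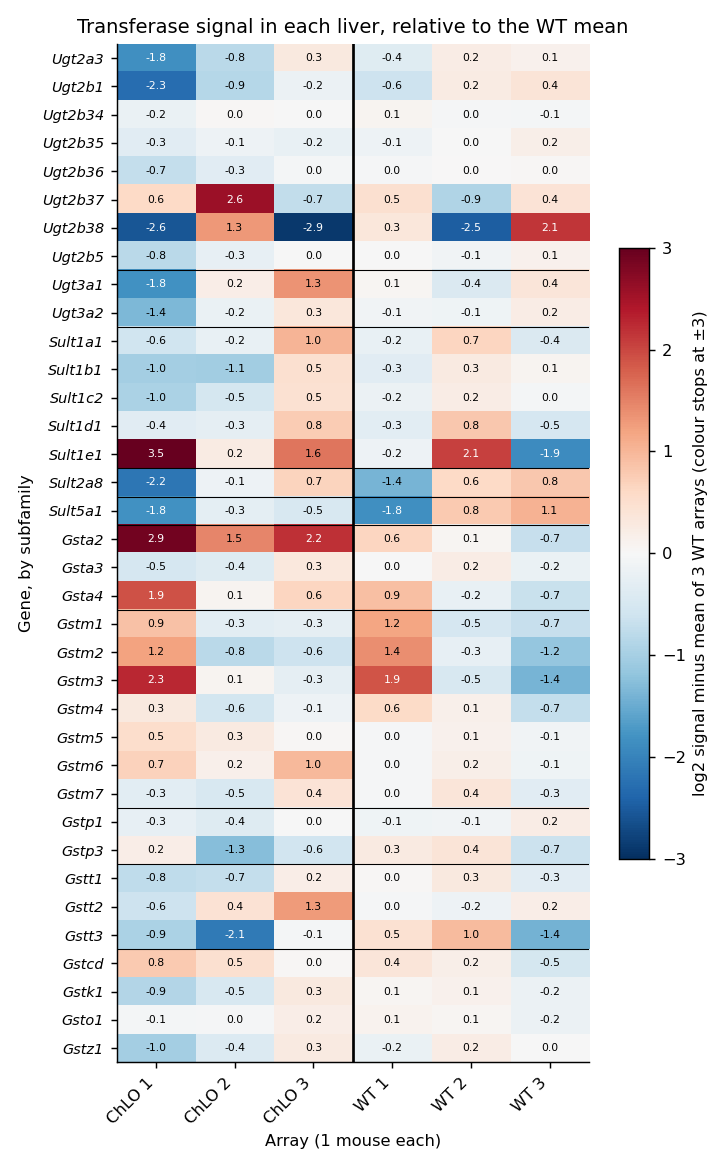
Log2 signal of each of the 36 transferase genes as the difference from its WT mean, with the arrays as columns (ChLO 1 to 3 left of WT 1 to 3) and genes as rows; colour and printed values give the log2 difference. Array ChLO 1 was the lowest of the 6 for 16 members, and Gsta2 was above its WT mean on all 3 ChLO arrays.

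The largest difference among the members belonged to Gsta2, an alpha-class glutathione transferase that also reduces lipid peroxides. Gsta2 had log2 signals of 13.49, 12.07 and 12.79 in ChLO livers, against 11.23, 10.66 and 9.91 in WT livers. No ChLO array reached down to the WT range. The means were 12.78 ± 0.71 in ChLO and 10.60 ± 0.67 in WT (SD, n = 3 mice each), a difference of 2.18 (SE 0.42) or 4.54-fold, with a limma adjusted p of 0.228. The difference ranged from 1.83 to 2.54 when single arrays were left out, and was 2.18 without ChLO 3. The name of its probe set marks it as matching several transcripts. Gsta1 had no probe set with a single symbol, and alpha-class sequences are closely related. Signal of Gsta1 in this probe set therefore cannot be told apart from that of Gsta2.

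The other alpha-class members were less separated. Gsta4, which is known for conjugating the lipid peroxidation product 4-hydroxynonenal, had 13.51, 11.67 and 12.23 in ChLO livers, against 12.50, 11.38 and 10.92 in WT livers, a difference of 0.87 (SE 0.53) with overlap. Gsta3, which in mice detoxifies aflatoxin epoxide, had the highest mean signal of the class, at 14.05, 14.16 and 14.86 in ChLO livers, against 14.53, 14.77 and 14.35 in WT livers. Its difference was -0.19 (SE 0.25), so the alpha class did not share a direction.

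The 250 bases upstream of the start of Gsta2 are given below as the promoter of the member with the largest difference, 5′ to 3′ on the minus strand of GRCm38.p6, from RefSeq. Capitals mark matches to GCGTG, the core of the AHR response element, and to TATAAA, the TATA box, searched on both strands.

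Gsta2 chr9:78347146-78347395: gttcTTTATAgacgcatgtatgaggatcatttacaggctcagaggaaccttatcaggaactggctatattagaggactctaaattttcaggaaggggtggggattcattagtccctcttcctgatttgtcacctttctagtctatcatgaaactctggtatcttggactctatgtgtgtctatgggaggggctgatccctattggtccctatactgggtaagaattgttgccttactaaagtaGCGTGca

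With -1 as the last base before the start, the GCGTG match spanned -7 to -3, and the TATAAA match, on the opposite strand, spanned -246 to -241. GCGTG occurred in 24.2% of the 33 members with a promoter entry and in 30.9% of 27025 mouse genes. TATAAA occurred in 15.2% of these members and in 14.3% of all genes. The core of the antioxidant response element, TGACNNNGC, was found in 3 members, Gsta3, Gstm5 and Gstm7 (9.1%, against 11.5% of all genes). The E-box core CACGTG, which is part of the element that ChREBP binds in pairs, was in 0 of the 33 members and in 6.9% of all genes. In these shares a gene counted if the window of any of its listed starts held a match. A match or its absence describes these letters in these windows only.

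The groups overlapped for all 7 mu-class glutathione transferases, which lie on chromosome 3. Gstm6 had 11.48, 10.95 and 11.76 in ChLO livers, against 10.75, 10.97 and 10.66 in WT livers. Its means were 11.40 ± 0.41 and 10.80 ± 0.16 (SD, n = 3 mice each), a difference of 0.60 (SE 0.23) with a limma adjusted p of 0.526, and ChLO 2 lay within the WT range. Gstm1, the member of the class with the highest mean signal, had 15.23, 14.04 and 14.10 in ChLO livers, against 15.54, 13.87 and 13.68 in WT livers, a difference of 0.09 (SE 0.53). Mice ChLO 1 and WT 1 were both high for Gstm1, and the other 4 arrays were low. Gstm3 had the same layout with a wider span, at 14.80, 12.63 and 12.27 in ChLO livers, against 14.42, 12.06 and 11.15 in WT livers. Gstm2 had 12.64, 10.62 and 10.82 in ChLO livers, against 12.84, 11.19 and 10.29 in WT livers. ChLO 1 and WT 1 were the highest pair of arrays for 5 members, namely Gstm1, Gstm2, Gstm3, Gstm4 and Gsta4 (13.9%, against 8.83% of all genes). WT 3 was the lowest array for 6 of the 7 Gstm genes. Gstm4, Gstm5 and Gstm7 differed by -0.14, 0.27 and -0.13. The layout of Gstm1 and Gstm3 was named after its values were seen. Members of this family have closely related sequences, so probe sets of the family can share signal.

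The upstream 250 bases of these members, which shared their high mice, are shown for comparison on the same build, strand and source, with the same motifs in capitals.

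Gstm1 chr3:108017819-108018068: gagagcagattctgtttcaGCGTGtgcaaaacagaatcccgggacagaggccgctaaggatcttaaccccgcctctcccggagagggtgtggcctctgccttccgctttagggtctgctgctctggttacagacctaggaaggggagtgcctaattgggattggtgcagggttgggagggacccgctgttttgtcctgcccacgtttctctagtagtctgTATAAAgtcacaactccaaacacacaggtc
Gstm3 chr3:107969175-107969424: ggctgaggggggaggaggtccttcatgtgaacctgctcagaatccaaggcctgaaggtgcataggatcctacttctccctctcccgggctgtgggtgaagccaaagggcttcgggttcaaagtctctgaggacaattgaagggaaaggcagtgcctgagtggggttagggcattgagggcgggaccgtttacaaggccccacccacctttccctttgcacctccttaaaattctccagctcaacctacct

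The windows of Gstm1 and Gstm3 were 61.6% identical over an alignment, against a median of 51.0% over the 528 pairs of the 33 member windows. Gstm1 held a TATAAA match at -30 to -25 and a GCGTG match at -231 to -227, while Gstm3 held no match to any of the motifs searched. RefSeq lists 2 starts for Gstm1, and the window belongs to the one farther downstream.

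The pi-class members are known in mouse liver for higher levels in males than in females. Gstp1 had 15.42, 15.30 and 15.67 in ChLO livers, against 15.56, 15.58 and 15.90 in WT livers, a difference of -0.21 (SE 0.20), and Gstp3 differed by -0.55 (SE 0.41), with overlap for both. In the theta class, Gstt1 had 12.49, 12.54 and 13.46 in ChLO livers, against 13.29, 13.55 and 12.92 in WT livers, a difference of -0.42 (SE 0.29). ChLO 1 and ChLO 2 lay below all WT arrays for Gstt1, and ChLO 3 lay within the WT range. Gstt3 differed by -1.04 (SE 0.69) and Gstt2 by 0.36 (SE 0.42). Gstz1, the maleylacetoacetate isomerase of tyrosine breakdown, had 12.32, 12.92 and 13.61 in ChLO livers, against 13.14, 13.55 and 13.32 in WT livers, a difference of -0.39 (SE 0.31). Gstk1, the kappa-class enzyme of mitochondria and peroxisomes, differed by -0.35 (SE 0.29), Gsto1, an omega-class enzyme that reduces dehydroascorbate, by 0.04 (SE 0.16), and Gstcd by 0.44 (SE 0.34). For Gstz1, as for Gstt1, only ChLO 1 and ChLO 2 lay below the WT arrays. Over all 19 glutathione transferases, 9 had the higher and 10 the lower mean in ChLO livers, and the median difference was -0.08. That median was 0.15 without WT 1, 0.08 without ChLO 2, -0.25 without WT 3, 0.07 under quantile normalization and 0.17 under spike-in scaling, so it too had no fixed sign.

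**Figure D2:**
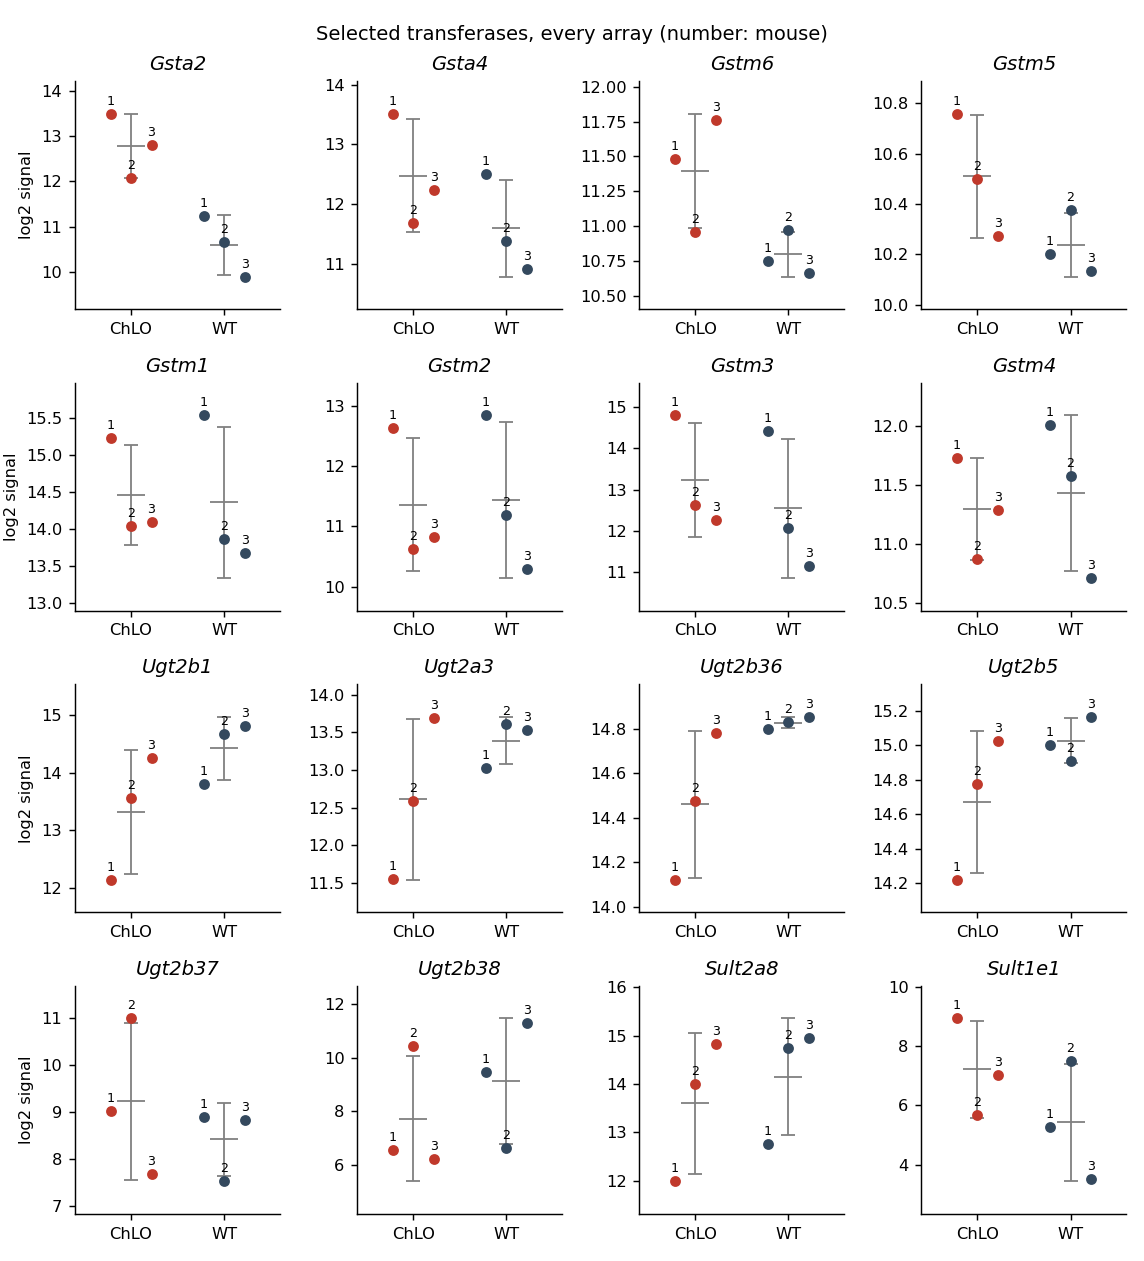
Log2 signal of selected transferase genes in every mouse, with ChLO left of WT; points are single mice numbered as in the labels, and bars are the mean ± SD (n = 3 each). The ChLO points of Gsta2 lay above all WT points, those of Ugt2b36 lay below them, and the groups overlapped in the other panels.

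Among the glucuronosyltransferases, 9 of 10 had the lower mean in ChLO livers, with a median difference of -0.36. The count was 9 when arrays were scaled to equal medians, 8 under quantile normalization and 6 when arrays were scaled to the hybridization spike-in controls, which moved the median of all genes to 0.31. Without ChLO 1 it was 6, with a median of -0.15, and without ChLO 3 it was 9, with a median of -0.58. Ugt2b36, one of the Ugt2b enzymes of liver, had 14.12, 14.48 and 14.78 in ChLO livers, against 14.80, 14.83 and 14.85 in WT livers. The groups did not overlap, although ChLO 3 at 14.78 came close to WT 1 at 14.80. The means were 14.46 ± 0.33 in ChLO and 14.83 ± 0.03 in WT (SD, n = 3 mice each), a difference of -0.37 (SE 0.20) with a limma adjusted p of 0.624.

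Ugt2b5, the member of the subfamily with the highest mean signal, had 14.22, 14.77 and 15.02 in ChLO livers, against 15.00, 14.91 and 15.16 in WT livers. ChLO 1 and ChLO 2 were below the WT arrays and ChLO 3 was among them, and the difference was -0.35 (SE 0.24). Ugt2b1 had 12.14, 13.57 and 14.25 in ChLO livers, against 13.80, 14.67 and 14.81 in WT livers, a difference of -1.10 (SE 0.52) with a limma adjusted p of 0.579. Here too ChLO 1 was the lowest array, and only ChLO 3 overlapped with WT. Ugt2a3 had 11.56, 12.58 and 13.69 in ChLO livers, against 13.03, 13.61 and 13.53 in WT livers, and ChLO 3 was the highest of all 6 arrays for it. Ugt2b35 differed by -0.24 (SE 0.16) and Ugt2b34 by -0.06 (SE 0.16). Ugt3a2, of the family whose human members use UDP-sugars other than UDP-glucuronate, had 12.35, 13.51 and 14.05 in ChLO livers, against 13.60, 13.58 and 13.93 in WT livers. Its relative Ugt3a1 had 8.56, 10.57 and 11.73 in ChLO livers, against 10.44, 9.95 and 10.75 in WT livers. For both Ugt3 genes ChLO 1 was the lowest and ChLO 3 the highest array.

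Ugt2b37 and Ugt2b38 had the widest span over the arrays among the glucuronosyltransferases. Ugt2b37 had 9.02, 10.99 and 7.67 in ChLO livers, against 8.90, 7.52 and 8.83 in WT livers, a difference of 0.81 (SE 0.78). Ugt2b38 had 6.56, 10.42 and 6.23 in ChLO livers, against 9.46, 6.65 and 11.27 in WT livers, a difference of -1.39 (SE 1.37), and its span of 5.04 over the 6 arrays was wider than the difference. ChLO 2 was the highest ChLO array for both genes. All 8 Ugt2 members lie on chromosome 5, as do Sult1b1, Sult1d1 and Sult1e1.

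The upstream windows of 4 Ugt2b members are shown because those of Ugt2b5, Ugt2b37 and Ugt2b38 are much alike while their signals over the arrays were not. They are 250 bases each, 5′ to 3′ on the minus strand of GRCm38.p6, from RefSeq. Capitals mark AGGTCA, the half-site of nuclear receptors, and TGANTCA, both searched on both strands. TGANTCA is looser than the AP-1 site, TGACTCA or TGAGTCA, since it allows any middle base.

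Ugt2b5 chr5:87140341-87140590: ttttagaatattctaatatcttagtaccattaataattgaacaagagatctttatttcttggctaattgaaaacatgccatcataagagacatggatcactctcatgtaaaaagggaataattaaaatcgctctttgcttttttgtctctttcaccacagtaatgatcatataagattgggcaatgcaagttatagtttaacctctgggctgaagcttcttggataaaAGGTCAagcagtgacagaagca
Ugt2b36 chr5:87092556-87092805: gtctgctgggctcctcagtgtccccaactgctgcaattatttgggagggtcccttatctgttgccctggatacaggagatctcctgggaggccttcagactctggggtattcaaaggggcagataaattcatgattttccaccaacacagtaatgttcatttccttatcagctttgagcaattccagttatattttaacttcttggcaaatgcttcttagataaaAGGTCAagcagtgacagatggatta
Ugt2b37 chr5:87254789-87255038: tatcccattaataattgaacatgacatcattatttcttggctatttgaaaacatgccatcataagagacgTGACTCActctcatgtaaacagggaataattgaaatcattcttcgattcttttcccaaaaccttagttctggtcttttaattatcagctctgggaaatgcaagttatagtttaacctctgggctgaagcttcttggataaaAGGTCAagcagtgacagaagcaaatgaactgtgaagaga
Ugt2b38 chr5:87424204-87424453: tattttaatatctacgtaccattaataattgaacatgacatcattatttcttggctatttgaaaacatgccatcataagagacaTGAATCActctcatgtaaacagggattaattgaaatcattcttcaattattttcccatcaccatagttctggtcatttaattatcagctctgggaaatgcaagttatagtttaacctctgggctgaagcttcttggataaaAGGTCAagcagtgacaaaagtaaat

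AGGTCA was present in all of these windows, beginning at -22 in Ugt2b5, at -25 in Ugt2b36 and Ugt2b38 and at -39 in Ugt2b37. It occurred in 5 of the 8 Ugt2 members, in 27.3% of the members with a promoter entry and in 15.8% of all genes. TGANTCA was present in Ugt2b37 as TGACTCA, an AP-1 site, and in Ugt2b38 as TGAATCA, which is not that site. This loose pattern occurred in 18.2% of these members and in 7.8% of all genes, and AP-1 sites alone were not counted. The windows of Ugt2b37 and Ugt2b38 were 89.6% identical, those of Ugt2b38 and Ugt2b5 84.8%, and those of Ugt2b36 and Ugt2b5 64.0%. Ugt2b37 and Ugt2b38 nevertheless ordered the 6 arrays differently, with ChLO 2 the highest for Ugt2b37 and WT 3 the highest for Ugt2b38. Coding sequences in this cluster are also closely related, so the signals of single genes are uncertain.

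Of the sulfotransferases, 3 had the higher and 4 the lower mean in ChLO livers, with a median difference of -0.34. That median was 0.24 without ChLO 1, -0.75 without ChLO 3, -0.21 without WT 3 and -0.09 under spike-in scaling, so it had no fixed sign. Sult1a1, the phenol sulfotransferase with the highest mean signal of its subfamily, had 12.85, 13.22 and 14.47 in ChLO livers, against 13.22, 14.10 and 13.02 in WT livers, a difference of 0.07 (SE 0.45). Sult2a8, a bile acid sulfotransferase of mouse liver, had 11.99, 14.00 and 14.82 in ChLO livers, against 12.77, 14.74 and 14.95 in WT livers, a difference of -0.55 (SE 0.79). Mouse 1 of each group was low for Sult2a8. Sult1e1, which inactivates estrogens, had 8.93, 5.66 and 7.04 in ChLO livers, against 5.26, 7.49 and 3.53 in WT livers, a difference of 1.79 (SE 1.12). It spanned 5.41 over the arrays, and ChLO 2 and ChLO 3 lay within the WT range. Its means were 7.21 in ChLO and 5.43 in WT, so Sult1e1 passed the filter on low signal only through its ChLO signal. It is nevertheless counted among the 3 sulfotransferases, and among the members, with the higher mean. Sult5a1 had 6.39, 7.93 and 7.72 in ChLO livers, against 6.36, 9.01 and 9.27 in WT livers, a difference of -0.86 (SE 0.78). Sult1b1, which acts on thyroid hormones, differed by -0.53 (SE 0.42), Sult1c2 by -0.34 (SE 0.36), and Sult1d1, which acts on catecholamines, by 0.05 (SE 0.41). No sulfotransferase separated the groups.

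The 8 genes of the rule whose probe sets lay under 5.5 were Gstt4, with a mean of 4.81, Sult1c1 with 4.69, and Sult4a1, Sult2a2, Sult3a1, Gsto2, Sult2b1 and Sult6b1 below these. Just inside lay Sult1e1 with 6.32, Gstcd with 7.62 and Sult5a1 with 7.78. The WT mean of Sult1e1, 5.43, was itself under 5.5. Of the 36 members, 8 had further probe sets past the filter, and for Gsto1, Ugt2b34 and Ugt3a1 a further probe set had the other sign.

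**Figure D3:**
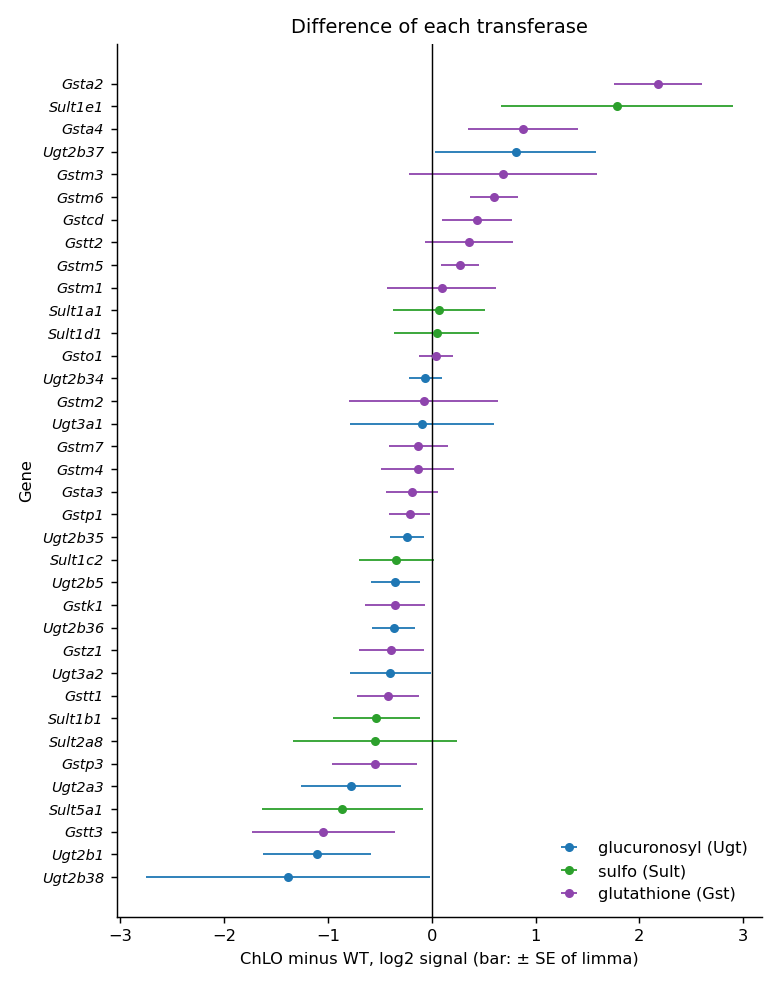
Difference in log2 signal, ChLO minus WT, for each of the 36 transferases, with genes as rows and families by colour; points are limma estimates and bars their standard errors. Gsta2 at 2.18 lay farthest to the right and Ugt2b38 at -1.39 farthest to the left, with an SE of 1.37 for Ugt2b38.

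The spread among the ChLO mice had a recurrent order. Array ChLO 1 was the lowest of the 6 for 16 members (44.4%, against 22.3% of all genes) and ChLO 3 the highest for 13 (36.1%, against 20.4%). ChLO 1 lay below every WT array for 19 members (52.8%, against 29.2% of all genes) and ChLO 2 for 15 (41.7%, against 25.0%), but ChLO 3 for 3 (8.33%, against 24.0%). ChLO 3 lay above every WT array for 14 members (38.9%, against 31.0%). Of the 10 glucuronosyltransferases, ChLO 1 was below every WT array in 9, ChLO 2 in 5 and ChLO 3 in 3. The SD was larger in ChLO than in WT for 24 members (66.7%, against 61.9% of all genes), and the difference between groups was smaller than the larger SD for 29 (80.6%, against 71.2%). Over 12 male-biased genes of mouse liver the median shift from the WT mean was -1.59, -0.49 and 0.03 in ChLO 1, 2 and 3, against -0.47, -0.16 and 0.58 in WT 1, 2 and 3. Over 12 female-biased genes it was 0.12, 0.10 and 0.70 in ChLO, against 0.33, 0.07 and -0.46 in WT. Over 12 periportal hepatocyte markers, which include the listed ChREBP target G6pc, it was -1.02, -0.54 and -0.04 in ChLO, against -0.09, 0.06 and 0.03 in WT. Over 13 genes listed as pericentral markers it was -0.48, 0.41 and 0.41 in ChLO, against -0.09, 0.05 and 0.19 in WT. Cyp2f2, at -0.92 (SE 0.37), was in both the periportal and the pericentral list, so these are not separate sets of genes. ChLO 1 was thus the lowest array for the male-biased, periportal and pericentral lists, while WT 3 was the lowest for the female-biased list. ChLO 2 went opposite ways in the periportal and pericentral lists. The part of these lists in the transferase values was not tested.

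Without ChLO 3, 13 members (36.1%) had an unadjusted limma p under 0.05, against 20.4% of all genes, 2 of them higher and 11 lower in ChLO livers. The higher ones were Gsta2, at 2.18, and Ugt2b37, at 1.59. The lower ones were Ugt2b1 (-1.57), Ugt2a3 (-1.32), Sult1b1 (-1.04), Ugt3a2, Ugt2b36 and Ugt2b5 (both -0.53), Sult1c2, Gstt1, Gstz1, Gstk1 and Gsta3. None of the 36 passed an adjusted p of 0.05 in that fit, in which 302 other genes did, and the smallest member value was 0.0594, that of Gsta2. Without ChLO 1, in contrast, Ugt2b1 differed by -0.52, Ugt2a3 by -0.25 and Ugt2b36 by -0.20. The size of the lower Ugt values thus rested on which ChLO mice were counted.

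Genes around the supply of conjugation donors were read from lists for each reaction. At an unadjusted limma p under 0.05, 8.96% of all genes were called, 5.46% higher and 3.5% lower in ChLO livers. In the list named for UDP-glucuronate supply and release, 8 of 10 genes had the lower mean in ChLO livers (median -0.24), and Ugdh and Slc35d1 had the higher. The lower ones included Galt, Ugcg, Slc35a3, Slc35b1 and Uxs1, which do not make UDP-glucuronate, so this count does not measure donor supply. The nucleotide-sugar transporter Slc35d2 was the 1 of 10 that passed an unadjusted limma p under 0.05. It had 10.80, 9.88 and 9.72 in ChLO livers, against 10.87, 10.84 and 10.83 in WT livers. Slc35d1, a further nucleotide-sugar transporter, had 12.08, 12.24 and 12.11 in ChLO livers, against 12.03, 11.72 and 11.98 in WT livers. Every ChLO array was thus higher for Slc35d1, at 0.24 (SE 0.16). Ugdh, which oxidizes UDP-glucose to UDP-glucuronate, had 13.86, 13.30 and 12.43 in ChLO livers, against 12.78, 12.12 and 12.43 in WT livers. Ugp2, which makes UDP-glucose, had 13.79, 13.74 and 14.43 in ChLO livers, against 14.40, 14.73 and 14.37 in WT livers. For these 2 successive enzymes the differences had opposite signs, at 0.75 (SE 0.36) for Ugdh and -0.51 (SE 0.23) for Ugp2, and ChLO 3 lay within the WT range for both.

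For sulfate and PAPS, 7 of 16 genes had the higher and 9 the lower mean (median -0.05). An unadjusted limma p under 0.05 was passed by 1 of 16, against 8.96% of all genes. It was the Golgi PAPS transporter Slc35b2, at -0.44 (SE 0.18). Papss1, a PAPS synthase, had 10.35, 9.62 and 9.68 in ChLO livers, against 9.44, 9.49 and 9.33 in WT livers, with every ChLO array higher, at 0.46 (SE 0.23). Papss2, the other PAPS synthase, differed by -0.29 (SE 0.36). For glutathione synthesis and recycling, 11 of 19 were higher and 8 lower (median 0.10). At an unadjusted limma p under 0.05, 1 was higher and 1 lower, against 5.46% and 3.5% of all genes. These were glutathione synthetase Gss, with 11.99, 11.37 and 10.62 in ChLO livers, against 10.58, 9.68 and 10.87 in WT livers, and the glutathione-degrading Chac2, at -0.46 (SE 0.18). Gclc, the catalytic subunit of the rate-limiting ligase, had 13.88, 13.51 and 12.06 in ChLO livers, against 12.93, 12.05 and 12.51 in WT livers, and its partner Gclm differed by -0.17 (SE 0.25). ChLO 3 was the lowest ChLO array for Gss and Gclc.

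Among 12 microsomal glutathione transferases and related enzymes, 2 passed an unadjusted limma p under 0.05, both higher, against 5.46% of all genes. Mgst3 had 11.47, 10.62 and 10.66 in ChLO livers, against 10.72, 10.06 and 9.64 in WT livers, at 0.78 (SE 0.33), and Clic1, a chloride channel protein with a glutathione transferase fold, differed by 1.11 (SE 0.40). Mgst1, the abundant membrane enzyme, had 15.44, 15.46 and 15.71 in ChLO livers, against 15.78, 15.88 and 15.95 in WT livers, at -0.33 (SE 0.18), so every ChLO array was lower. Among 20 other conjugating enzymes, 15 had the lower mean. An unadjusted limma p under 0.05 was passed by 3, all lower, against 3.5% of all genes. They were As3mt, an arsenic methyltransferase, at -0.74 (SE 0.22), Inmt, an indole amine methyltransferase, at -0.67 (SE 0.24), and Fmo1, at -0.57 (SE 0.22). Fmo1 is a flavin monooxygenase that was listed with them.

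Of 15 xenobiotic receptors and co-factors, 2 passed an unadjusted limma p under 0.05, both higher, against 5.46% of all genes. Ahr, the aryl hydrocarbon receptor, had 11.84, 11.68 and 10.78 in ChLO livers, against 10.54, 10.50 and 10.55 in WT livers, a difference of 0.90 (SE 0.27, limma adjusted p = 0.455). Mafk, a small Maf protein that pairs with NRF2, differed by 1.19 (SE 0.36). Nfe2l2, the gene of NRF2, differed by 0.07 (SE 0.32), Nr1i2 (PXR) by -0.35 (SE 0.21) and Nr1i3 (CAR) by 0.13 (SE 0.49), all with overlap. Among 19 NRF2 targets other than transferases, 13 were higher and 6 lower (median 0.33). At an unadjusted limma p under 0.05, 2 were higher and 2 lower, against 5.46% and 3.5% of all genes. The median shift of the 19 targets was 1.19, 0.29 and -0.18 in ChLO 1, 2 and 3, against 0.37, -0.08 and -0.10 in the WT arrays. Nqo1, a quinone reductase of that list, had 9.33, 8.59 and 8.46 in ChLO livers, against 7.96, 8.46 and 7.46 in WT livers, at 0.84 (SE 0.34). The other called members of that list were Trib3, a pseudokinase induced by stress, at 2.04, Me1, the malic enzyme that is also a lipogenic gene, at -3.37 (SE 0.70), and the carboxylesterase Ces2g, at -0.85 (SE 0.17). Of 18 CAR and PXR targets, 2 were higher and 2 lower at that p, against 5.46% and 3.5% of all genes. The lower ones included the cytochrome P450 Cyp2c29, at -1.72 (SE 0.35). Cyp2b10, a CAR target, had 9.08, 8.07 and 7.19 in ChLO livers, against 6.16, 7.99 and 4.44 in WT livers. Of 4 AHR targets tested, 2 were higher at that p, against 5.46% of all genes. They were Nqo1 and Cyp1a2, the second at 0.75 (SE 0.24) and also among the pericentral markers. The other 2 had the lower mean with overlap, Cyp1a1 at -0.11 (SE 0.53) and Tiparp at -0.06 (SE 0.27).

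Of 19 transporters of conjugates and bile, 4 were higher and 4 lower at an unadjusted limma p under 0.05. The higher ones included Abcb1b, which passed the filter of 5.5 only through its ChLO signal, with means of 8.02 in ChLO and 4.72 in WT. The shares of all genes were 5.46% higher and 3.5% lower. Abcc3, which exports glucuronides to the blood, had 12.12, 11.87 and 11.69 in ChLO livers, against 11.09, 10.26 and 10.36 in WT livers. Every ChLO array lay above every WT array, and the difference was 1.32 (SE 0.25, limma adjusted p = 0.221). Abcc2, which exports conjugates to bile, differed by 0.30 (SE 0.23) with overlap. Slc10a1, the bile acid uptake carrier, had 11.77, 13.30 and 14.36 in ChLO livers, against 14.41, 15.16 and 14.82 in WT livers, at -1.65 (SE 0.58), and the bile salt export pump Abcb11 differed by -1.26 (SE 0.33). ChLO 1 was the lowest and ChLO 3 the highest ChLO array for Slc10a1, as for Ugt2b1, Ugt2b5 and Ugt2b36.

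**Figure D4:**
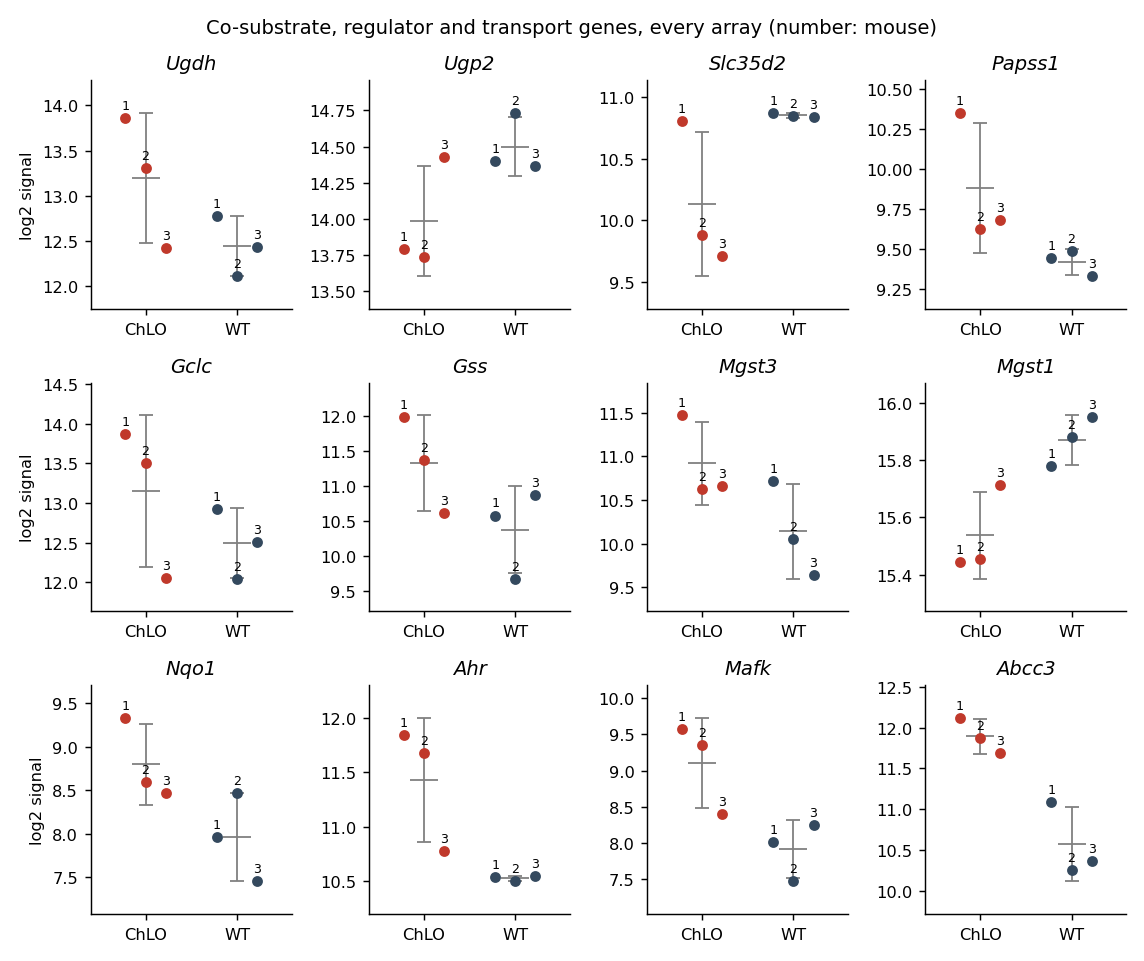
Log2 signal in every mouse of 12 genes that supply donors, regulate transferases or export conjugates, with ChLO left of WT; points are single mice numbered as in the labels, and bars are the mean ± SD (n = 3 each). The ChLO points of Abcc3, Ahr, Papss1, Mafk and, by a narrow margin, Nqo1 lay above all WT points. Those of Slc35d2 and Mgst1 lay below them, and Ugdh, Ugp2 and Gclc overlapped through ChLO 3.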

How the data were processed

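Liver RNA of 6 mice was measured on Affymetrix arrays, 1 array per mouse. The authors deposited log2 signals made with MAS5, per the submitters' processing notes, which give no version. The values fit MAS5 scaling, since the linear mean of every array was 500 after 2% was trimmed from each end. Such scaling hides a shift shared by most transcripts, and leaves dim probe sets variable. For the genome build behind the probe sets, none is given in the sources used.

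Probe sets were named by the platform annotation (34945 with 1 symbol, 932 with several, 9160 with none and 64 controls, of 45101). Probe sets with a mean log2 signal under 5.5 were left out, and each gene was represented by its brightest probe set, giving 12596 of 18193 genes. ChLO was compared with WT by limma 3.58.1 in R 4.3.3 (lmFit, eBayes with trend, no block), with Benjamini-Hochberg adjustment over all genes and a threshold of 0.05. Differences are ChLO minus WT in log2 units, and SE is limma's moderated standard error. The labels call the samples biological replicates, and their number limits the precision. The fit was tested on simulated data.

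The members and the 22 lists (357 genes) were chosen with earlier results of these data known. Members were named with every array where the groups did not overlap, where the unadjusted p was under 0.05, or where their mean was the highest of a subfamily. Other members given with every array were chosen after their values were seen. In lists, up to 4 genes with the smallest p and a fixed set were named. Over all genes, the deviations of same-numbered mice 1, 2 and 3 correlated at 0.30, -0.17 and 0.06. Over the members the correlations were larger in size for numbers 1 and 2, at 0.69, -0.72 and 0.04. Their signs differed, so numbers were not treated as pairs in the main fit. Promoter windows came from RefSeq (GRCm38.p6). They were found for 33 members, and Ugt3a2, Gstt2 and Gsta4 had none. Alternatives varied normalization, filter, probe set choice, variance model, weights, block and single arrays.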

Additional observations from a re-analysis of the deposited data

How the results depend on the processing

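The number of arrays, 3 a group, limits the precision, and members such as Sult1e1 and Ugt2b38 spanned over 5 log2 units between mice. No member was called in 16 of the 17 alternative fits. The exception was array weights, an estimate that stopped before it converged, with 1 member called, Gsta2 at 1.71 (limma adjusted p = 0.0438); over the alternatives that measured it, its difference stayed between 1.71 and 2.54 and its adjusted p between 0.0438 and 0.663. The count of all genes called was 0 and became 14 at a threshold of 0.10, 3 with no filter, 568 with array weights, 1 with the replicate block, and 0 to 302 when single arrays were left out, the 302 without ChLO 3 and 4 without ChLO 1. Members at an unadjusted p under 0.05 numbered 2, and 0 without probe sets of several transcripts (31 members, with Gsta2 and Gstm6 not measured), 1 with no mean-variance trend, 11 with array weights (30.6% of members against 24.9% of all genes), 8 with the replicate block (4 in each direction, 22.2% of members against 10.6% of all genes) and 2 to 13 with single arrays left out, the 13 without ChLO 3 (36.1% against 20.4%) and 4 without WT 1 (11.1% against 6.53%). Members without overlap between groups numbered 2, and 1 under quantile normalization (2.78% against 14.2% of all genes), 4 under spike-in scaling (11.1% against 23.1%), 1 without probe sets of several transcripts (3.23% against 15.2%) and 3 to 16 with single arrays left out. The 3 without ChLO 1 were 8.33% of members against 22.1% of all genes, and the 16 without ChLO 3 were 44.4% against 39.3%; with fewer arrays the share of all genes was higher too. Members with the higher mean in ChLO numbered 13, and 21 under spike-in scaling and 9 to 15 with single arrays left out; the member median was -0.16, and 0.0855 under spike-in scaling, where that of all genes was 0.31, and -0.40 to -0.06 with single arrays left out. No called value reversed. Uncalled differences of up to 8 members changed sign within a setting, the 8 under spike-in scaling. The causes were not tested.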
